A study of Mus musculus with 42 samples.

Results

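The 8 genes described here are Sdc4, Vegfc, Blvrb, Serinc3, Hddc3, Alkbh6, Mrps12 and Rab4a. They were selected on their measured levels: in earlier results of these same arrays young wild-type mice stood apart from the other groups. Every probe set that carried any of these symbols in the platform annotation was taken, which gave 18 of 34945 probe sets with a symbol, in 8 of 18193 genes. The probe set of a gene with the highest mean over 40 arrays is called its main probe set. The levels of young wild-type mice against the others were used for that choice, so they are given as a description and carry no test.

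RNA from quadriceps, a mostly fast muscle, and from soleus, a muscle rich in slow fibres, was hybridised to Affymetrix arrays. All mice were males, either wild type (wt) or C3KO, a name in use for mice that lack Capn3, the gene of the muscle protease calpain 3. Every group carries the strain label 129 SvEvBrd x C57BL/6 heterozygotes, young mice were 2 to 3 months old and adults 11 to 12 months. Quadriceps was measured in 4 wt young, 4 C3KO young, 6 wt adult and 7 C3KO adult mice, and soleus in 4, 4, 5 and 6 mice of the same groups. The values are log2 expression values as deposited, so a difference of 1 is a doubling.

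Array medians ran from 4.343 to 4.468. Capn3 checked the genotype labels: its probe set 1426043_a_at read 9.63 to 10.14 on wt and 3.08 to 4.02 on C3KO quadriceps arrays. The muscle labels were checked by the 8 genes of the slow fibre list, which includes Myh2 of type IIA fibres. Of these, 8 were higher in soleus on the mean of the 4 groups (limma, adjusted p under 0.05 each, median difference 4.71). The list's mean level was 6.00 to 10.47 on quadriceps and 12.06 to 13.81 on soleus arrays. A single array carried liver transcripts: for H4-2, a C3KO young mouse, 7 liver genes had a median of 13.05 in soleus, against 5.04 at most elsewhere. The names of the 4 wt young mice all begin with F4, and no such prefix is found in more than 1 group of genotype and age. Age and genotype of the wt young group therefore cannot be told apart from whatever else the F4 mice share. These are whole muscles, in which fewer cells of a type and less RNA per cell cannot be told apart.

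The genes work in different places of the cell. Sdc4 encodes syndecan 4, a heparan sulfate proteoglycan of the cell surface that binds matrix and growth factors and is found on satellite cells, the stem cells of muscle. Vegfc encodes a secreted growth factor that signals through VEGF receptor 3 and drives the growth of lymphatic vessels. Blvrb encodes a reductase of biliverdin and flavins, Hddc3 a hydrolase of the HD domain family, and Alkbh6 a member of the AlkB family of oxygenases. Mrps12 encodes a protein of the small subunit of the mitochondrial ribosome. Rab4a encodes a small GTPase of early endosomes that returns membrane proteins to the surface, and Serinc3 a membrane protein with many membrane-spanning segments.

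The start regions of 7 of the 8 genes were found in the RefSeq promoter table of build GRCm38.p6, all except that of Rab4a. The 250 bases before the start are shown for 4 of these genes. In their main probe sets wt young mice stood fully apart in both muscles, the pattern described below. Capitals mark any match, on either strand, to 4 motifs, and no match here overlaps another. The GC box was searched as GGGCGG. The CCAAT box was searched as its own name. The TATA box was searched as TATAAA. Heat shock half-sites were searched as GAANNTTC.
Sdc4 (chr2:164443189-164443438, minus strand): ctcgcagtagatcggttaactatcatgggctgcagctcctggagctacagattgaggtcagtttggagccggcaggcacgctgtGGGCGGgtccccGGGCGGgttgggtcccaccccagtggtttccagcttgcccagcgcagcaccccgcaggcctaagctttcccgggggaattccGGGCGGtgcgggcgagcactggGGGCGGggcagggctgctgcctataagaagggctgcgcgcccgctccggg
Vegfc (chr8:54077282-54077531, plus strand): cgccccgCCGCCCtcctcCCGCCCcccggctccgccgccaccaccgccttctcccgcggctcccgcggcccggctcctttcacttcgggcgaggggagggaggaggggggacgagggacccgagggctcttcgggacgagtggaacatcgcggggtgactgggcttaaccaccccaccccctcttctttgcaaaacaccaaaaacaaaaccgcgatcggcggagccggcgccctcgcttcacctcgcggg
Blvrb (chr7:27447728-27447977, plus strand): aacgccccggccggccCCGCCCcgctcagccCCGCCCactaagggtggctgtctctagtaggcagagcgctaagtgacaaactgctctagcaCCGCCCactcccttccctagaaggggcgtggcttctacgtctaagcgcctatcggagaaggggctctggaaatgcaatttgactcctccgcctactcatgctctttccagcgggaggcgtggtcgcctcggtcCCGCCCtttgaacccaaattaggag
Mrps12 (chr7:28741822-28742071, minus strand): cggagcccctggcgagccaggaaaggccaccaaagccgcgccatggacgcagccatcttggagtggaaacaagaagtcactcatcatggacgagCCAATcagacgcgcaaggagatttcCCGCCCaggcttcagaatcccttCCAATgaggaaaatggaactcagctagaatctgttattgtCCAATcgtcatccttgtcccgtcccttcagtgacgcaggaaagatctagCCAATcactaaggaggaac
The Sdc4 and Blvrb windows each held 4 GC boxes, that of Vegfc held 2 and that of Mrps12 held 1. The Mrps12 window also held 4 CCAAT boxes, and the other 3 windows shown held none. In the 32851 windows of the table, 32.7% held at least 1 GC box, 33.8% a CCAAT box, 12.4% a TATA box and 6.69% the heat shock letters. None of the 4 windows held the TATA or heat shock letters, which says only that these letters are not in these bases. GC content was 68.0% for Sdc4, 71.6% for Vegfc, 62.0% for Blvrb and 53.6% for Mrps12, against a median of 52.4% over all windows. For Blvrb the table lists a further start, and the window of the one that comes first on the chromosome is shown.

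The question put to the arrays was whether wt young mice differ from all other mice in an all-or-none way, with every wt young array above, or every one below, all 17 other quadriceps arrays and, on the same side, all 15 other soleus arrays. This held for 14 of 34945 probe sets (0.0401%), of which 6 belong to the 8 genes, a count fixed by how the genes were chosen. The 6 probe sets cover 5 genes. Wt young mice were lowest in Vegfc, Blvrb, Sdc4 and Rab4a, the last with both of its probe sets, and highest in Mrps12. Alkbh6 and Serinc3 each missed it by 1 array in 1 muscle. Hddc3 did not show the pattern: there the wt adults stood apart. The name given to the set thus holds in both muscles for the main probe sets of 5 of 8 genes. For Sdc4 and Vegfc the other probe sets did not show the pattern, as described below.

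The space between wt young arrays and the nearest other array, called the gap, describes how clear the separation was. The gap in the muscle where it was smaller was 0.79 log2 units for Vegfc, 0.15 for Blvrb, 0.10 for Sdc4 and 0.09 for both Mrps12 and the main probe set of Rab4a. Just outside the rule lay Alkbh6, with an overlap of 0.01, and Serinc3, with an overlap of 0.02. The same all-or-none count was 1 probe set for C3KO young (0.00286%), 3 for wt adult (0.00858%) and 0 for C3KO adult mice, groups that also differ in size. Within a single muscle wt young mice stood apart in 143 probe sets in quadriceps (0.409%) and 95 in soleus (0.272%).

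**Figure D1:**
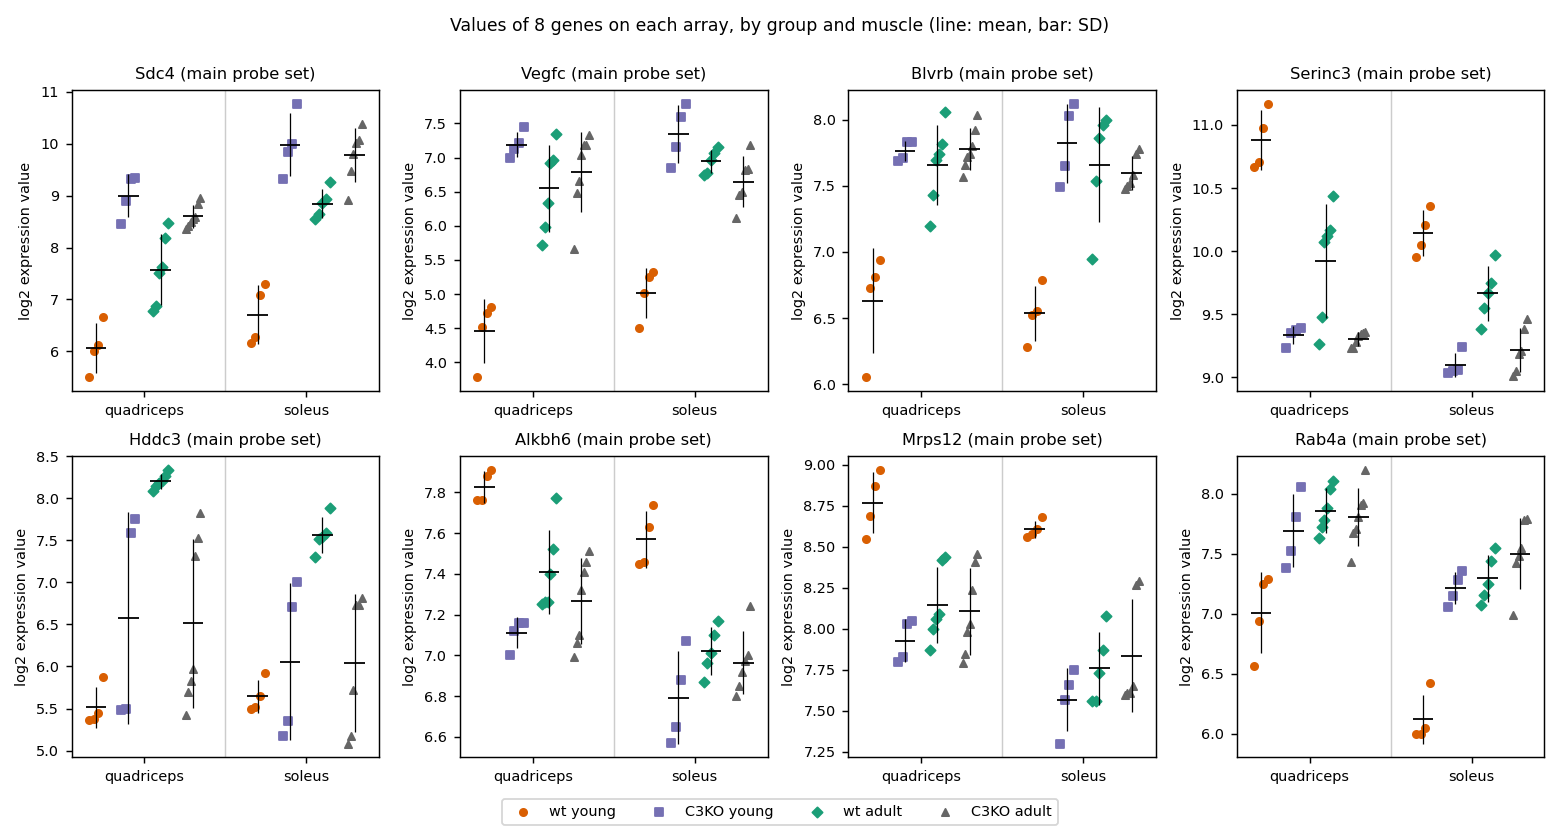
The log2 value of the main probe set of each of the 8 genes is plotted for every array, by group and muscle; the horizontal line is the group mean and the vertical bar the SD. Wt young points lie below all others for Sdc4, Vegfc, Blvrb and Rab4a and above all others for Mrps12, while for Hddc3 the wt adults, at 8.09 to 8.34 in quadriceps, lie above every other array.

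Sdc4, the cell surface proteoglycan, had the largest difference between the wt young mean and the other means in soleus among the 8 main probe sets. Its main probe set, 1448793_a_at, read 5.50, 6.00, 6.12 and 6.67 in wt young quadriceps. C3KO young quadriceps read 8.46, 8.89, 9.31 and 9.33. Wt adult quadriceps ran from 6.77 to 8.47 with a median of 7.57, and C3KO adult quadriceps from 8.36 to 8.96 with a median of 8.55. The order was wt young, wt adult and then both C3KO groups, whose ranges overlapped each other and, at 8.47, that of wt adults. In soleus wt young mice read 6.17, 6.28, 7.09 and 7.29, and C3KO young mice 9.31, 9.84, 10 and 10.77. Wt adult soleus read 8.54, 8.64, 8.86, 8.93 and 9.26, and C3KO adult soleus ran from 8.91 to 10.38 with a median of 9.91. Soleus of wt young mice was thus 9.67-fold below C3KO young, 8.39-fold below C3KO adult and 4.41-fold below wt adult soleus. The gap was 1.25 in soleus, yet only 0.10 in quadriceps, where wt adults M2-2 (6.77) and X2-3 (6.88) came close to F4-1 (6.67).

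Vegfc, the lymphatic growth factor, had the clearest separation of the 8 genes. Its main probe set, 1440739_at, read 3.78, 4.52, 4.73 and 4.81 in wt young quadriceps, near the array medians. C3KO young quadriceps read 6.99, 7.12, 7.21 and 7.44. Wt adult quadriceps ran from 5.72 to 7.34 (median 6.63) and C3KO adult quadriceps from 5.66 to 7.33 (median 7.04). The 3 other groups overlapped one another, and the lowest of their arrays lay 0.85 above the highest wt young array. In soleus wt young mice read 4.51, 5.01, 5.25 and 5.32, against 6.84, 7.15, 7.60 and 7.79 in C3KO young mice. Wt adult soleus read 6.75, 6.78, 6.97, 7.06 and 7.15, and C3KO adult soleus ran from 6.11 to 7.19 (median 6.65). The wt young mean differed from that of C3KO young mice by -2.73 log2 units in quadriceps and -2.32 in soleus, and no fold is given since wt young readings lay near the array medians.

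Blvrb, the biliverdin and flavin reductase, has a single probe set, 1451386_at. It read 6.05, 6.73, 6.81 and 6.94 in wt young quadriceps and 6.28, 6.52, 6.55 and 6.79 in wt young soleus. C3KO young mice read 7.69, 7.71, 7.83 and 7.83 in quadriceps and 7.49, 7.65, 8.03 and 8.12 in soleus. Wt adult quadriceps ran from 7.20 to 8.06 (median 7.72) and C3KO adult quadriceps from 7.57 to 8.04 (median 7.74). The 3 other group means differed little, at 7.66 to 7.78 in quadriceps, and wt young mice lay 2.03-fold to 2.21-fold below them. Wt adult soleus read 6.95, 7.54, 7.86, 7.96 and 8, and C3KO adult soleus ran from 7.48 to 7.78 (median 7.55). The nearest other array in soleus was again a single wt adult, X2-3 at 6.95.

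Rab4a, the endosomal GTPase, was lowest in wt young mice with both probe sets. The main one, 1449048_s_at, read 6.56, 6.94, 7.25 and 7.29 in wt young quadriceps and 6.00, 6.00, 6.05 and 6.42 in wt young soleus. C3KO young mice read 7.38, 7.52, 7.81 and 8.06 in quadriceps and 7.06, 7.15, 7.28 and 7.36 in soleus. Wt adult quadriceps ran from 7.63 to 8.11 (median 7.83) and C3KO adult quadriceps from 7.43 to 8.20 (median 7.81). In quadriceps F4-3 (7.29) and C3KO young J4-1 (7.38) nearly touched. Wt adult soleus read 7.07, 7.16, 7.25, 7.44 and 7.55, and C3KO adult soleus ran from 6.99 to 7.79 (median 7.52). The soleus gap, 0.56, was wider than that of quadriceps, and the other probe set, 1418341_at, had gaps of 0.05 and 0.59.

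Mrps12, the mitochondrial ribosomal protein, was highest in wt young mice. Its probe set, 1448799_s_at, read 8.55, 8.69, 8.87 and 8.97 in wt young quadriceps and 8.56, 8.58, 8.61 and 8.68 in wt young soleus. C3KO young mice read 7.80, 7.83, 8.03 and 8.05 in quadriceps and 7.30, 7.57, 7.66 and 7.75 in soleus. Wt adult quadriceps ran from 7.87 to 8.44 (median 8.07) and C3KO adult quadriceps from 7.79 to 8.46 (median 8.03). Adults of both genotypes were spread in the same way, with some arrays close to the wt young range and most well under it. Wt adult soleus read 7.56, 7.56, 7.73, 7.87 and 8.08, and C3KO adult soleus ran from 7.60 to 8.29 (median 7.63). The difference of means against the 3 other groups was smaller than for Sdc4 or Vegfc, from 1.54-fold to 2.05-fold over both muscles.

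Alkbh6, the AlkB family oxygenase, was higher in wt young mice but met 1 wt adult array. Its probe set, 1455390_at, read 7.76, 7.76, 7.88 and 7.91 in wt young quadriceps and 7.45, 7.46, 7.63 and 7.74 in wt young soleus. Wt adult quadriceps ran from 7.25 to 7.77 (median 7.33) and C3KO adult quadriceps from 6.99 to 7.51 (median 7.32). C3KO young mice read 7.00, 7.12, 7.16 and 7.16 in quadriceps and 6.57, 6.65, 6.88 and 7.07 in soleus. The array of wt adult X2-3, at 7.77, was the only one of 17 other quadriceps arrays to reach the wt young range. All 15 other soleus arrays lay below it, by 0.21 or more. Alkbh6 and Mrps12 shared their highest mice in quadriceps. The same 5 mice (X2-3, W2-2, U2-3, Q2-2 and Q2-3) held the 5 highest values of both genes among the 17 other arrays. In soleus Q2-2, X2-3 and W2-3 were among the 5 highest of both genes. H4-2, however, was lowest of the 15 in Alkbh6 (6.57) and ranked 5 in Mrps12 (7.75). The quadriceps overlap was noticed after the values were seen.

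Serinc3, the membrane protein, had its highest group means in the F4 mice. It was lower on average in C3KO mice than in wt adults, but these overlapped in both muscles. Its main probe set, 1455550_x_at, read 10.67, 10.71, 10.98 and 11.17 in wt young quadriceps. C3KO young quadriceps read 9.23, 9.35, 9.37 and 9.39, and C3KO adult quadriceps ran from 9.23 to 9.36 (median 9.33). Wt adult quadriceps fell between, from 9.26 to 10.44 (median 10.09). C3KO mice of both ages thus lay close together, while the wt adults were spread over more than 1 log2 unit. Wt adults W2-2 (9.26) and X2-2 (9.48) read at or near the C3KO level, and the other 4 wt adults read 10.07 to 10.44. In soleus wt young mice read 9.95, 10.05, 10.21 and 10.36, and wt adults 9.38, 9.55, 9.67, 9.75 and 9.97. X2-3, at 9.97, was the 1 of 15 other soleus arrays that reached the wt young range. C3KO soleus read 9.03, 9.05, 9.06 and 9.24 in young mice and ran from 9.01 to 9.46 (median 9.20) in adults. The 2 wt adults with the lowest Serinc3 in quadriceps, W2-2 and X2-2, had the highest Sdc4 there, at 8.18 and 8.47, and those with the highest Serinc3, X2-3 and M2-2, had the lowest Sdc4. In soleus X2-2, the lowest wt adult in Serinc3 (9.38), read 8.64 for Sdc4, inside the range of the other wt adults. There X2-3 and M2-2 (9.97 and 9.67 for Serinc3) had the highest Sdc4 of the wt adults, at 8.93 and 9.26. W2-3 (9.75 for Serinc3) had the lowest, at 8.54, so the quadriceps order was not repeated in soleus. These orders were noticed after the values were seen.

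Hddc3, the HD domain hydrolase, did not set wt young mice apart. Its main probe set, 1428692_at, read 5.36, 5.37, 5.45 and 5.88 in wt young quadriceps and 5.49, 5.52, 5.65 and 5.92 in wt young soleus. All wt adults were high, from 8.09 to 8.34 (median 8.20) in quadriceps and at 7.30, 7.52, 7.54, 7.59 and 7.89 in soleus. C3KO mice were split between a low and a high level at both ages. In C3KO young mice, H4-2 (5.48) and J4-2 (5.49) were low and J4-1 (7.59) and H4-1 (7.75) high in quadriceps. In C3KO adults, U2-3, Q2-1, Q2-4 and Q2-2 read 5.42 to 5.97, and Q2-3, U2-1 and U2-2 read 7.31 to 7.83. No quadriceps array of any group lay between 5.97 and 7.31, a space of 1.34, and no soleus array between 5.92 and 6.71. In quadriceps 10 arrays lay below that space and 11 above it. The wt adults lay above every other array in both muscles, with a smaller gap of 0.25.

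The low and high levels of Hddc3 belonged to the mouse rather than the muscle, with 2 exceptions. C3KO young soleus read 5.17 in H4-2 and 5.35 in J4-2, and 6.71 in J4-1 and 7.00 in H4-1, as in their quadriceps. Among C3KO adults, Q2-1 (5.08) and Q2-2 (5.17) were low in soleus too, and U2-1 (6.73) and U2-2 (6.82) high. Q2-3 and Q2-4 changed sides: Q2-3 read 7.31 in quadriceps and 5.72 in soleus, and Q2-4 read 5.83 and 6.73. The same mice also changed sides in Mrps12, where Q2-3 read 8.24 in quadriceps and 7.65 in soleus, and Q2-4 read 7.85 and 8.29. Both mice are C3KO adults, so comparisons of group means within a muscle do not depend on which array belongs to which of them. The cause was not tested.

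**Figure D2:**
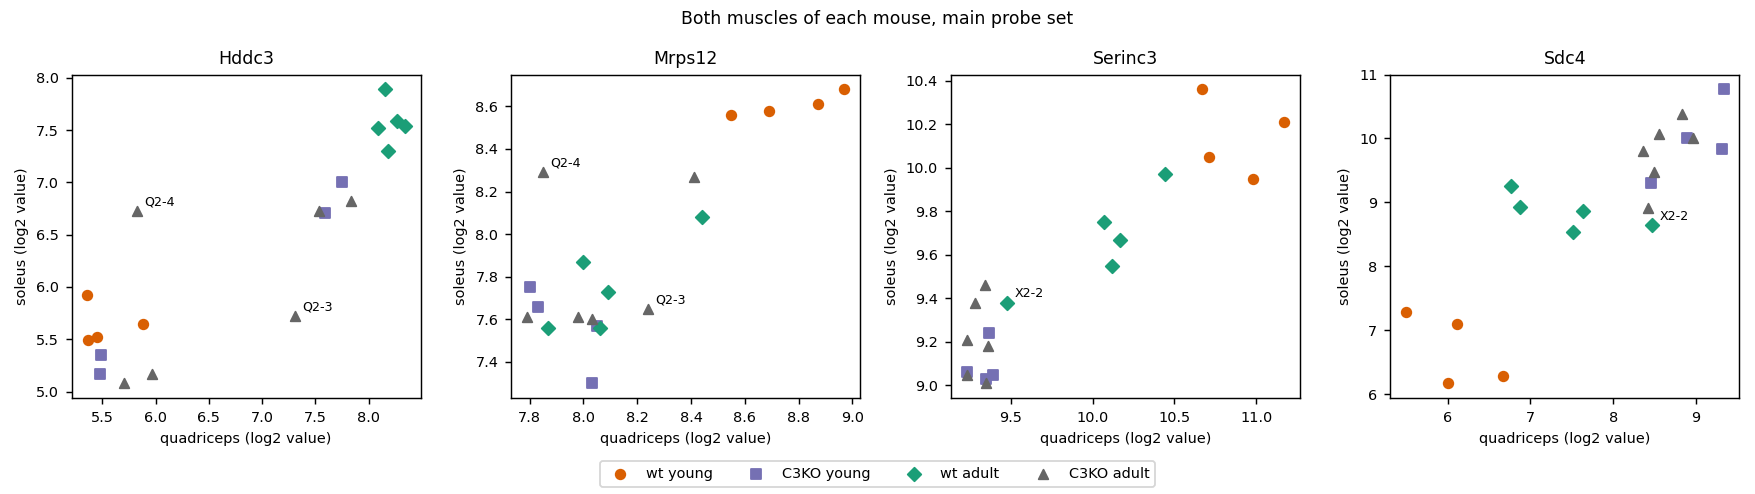
Each point is 1 mouse with arrays of both muscles, quadriceps on the x axis and soleus on the y axis (log2 values of the main probe set), for Hddc3, Mrps12, Serinc3 and Sdc4. For Hddc3 most mice are high or low in both muscles, while C3KO adults Q2-3 and Q2-4 change sides (7.31 and 5.72, 5.83 and 6.73). These 2 mice also change sides in Mrps12. Wt adult X2-2 lies near the C3KO mice for Serinc3, and for Sdc4 the order of the wt adults differs between the muscles.

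Probe sets of the same gene did not always agree. For Sdc4 the other probe set, 1417654_at, ran the opposite way: wt young mice read 5.48, 5.56, 6.07 and 6.39 in quadriceps and 6.22, 6.52, 6.99 and 7.21 in soleus, above the means of all other groups. Its other group means were 4.98 to 5.18 in quadriceps and 4.94 to 5.98 in soleus. It overlapped the wt young range on 1 of 17 other quadriceps arrays, C3KO young H4-2 at 5.56, and on 4 of 15 soleus arrays. A statement that Sdc4 was low in wt young mice therefore rests on 1 of its 2 probe sets.

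For Vegfc, probe set 1419417_at was lower in wt young mice by a mean of 0.54 in quadriceps and 0.48 in soleus, with 3 of 17 and 4 of 15 other arrays overlapping. The third, 1439766_x_at, gave differences of -0.06 and -0.15 and overlapped on 12 and 13 arrays. Neither came near the difference of the main probe set, -2.38 and -1.96. The suffix x marks probe sets with probes that may also match other transcripts. The main probe set of Serinc3, 1455550_x_at, carries this suffix as well.

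The 6 probe sets of Serinc3 all had a higher mean in wt young mice than the mean of the other groups, by 0.56 to 1.60 in quadriceps and 0.07 to 1.22 in soleus. Probe set 1417815_a_at stood apart in quadriceps by 0.14 and overlapped on 1 soleus array. In 1434548_at C3KO mice lay near the array medians, from 4.23 to 4.80 in quadriceps, while wt adults ran from 4.47 to 6.32 and wt young mice read 5.84, 6.47, 6.72 and 6.78. Again W2-2 (4.47) and X2-2 (4.55) were the low wt adults in quadriceps, so the same mice stood out with another set of probes. Hddc3's other probe set, 1452875_at, did not pass the filter on low values, nor did 1448847_at of Serinc3, and the remaining 16 of 18 did.

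**Figure D3:**
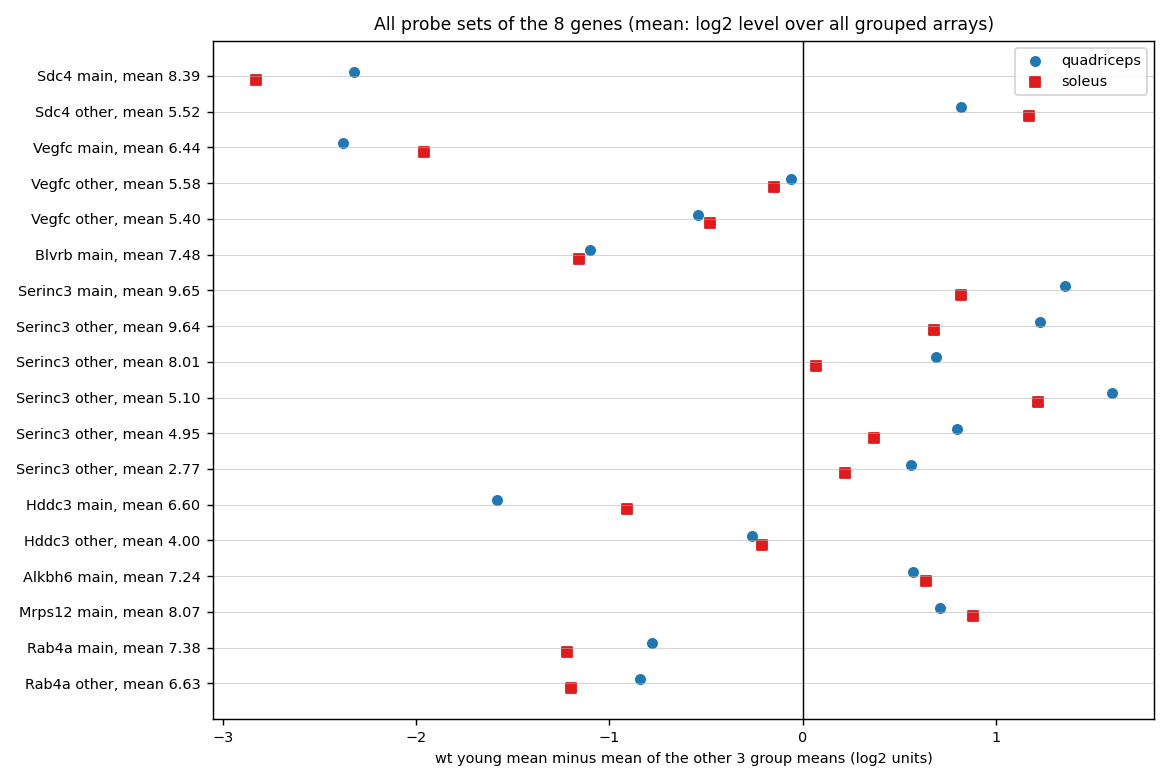
For each of the 18 probe sets the wt young mean minus the mean of the 3 other group means is plotted in log2 units, circles for quadriceps and squares for soleus, with the mean level over all grouped arrays beside the gene name. The Sdc4 probe sets lie on opposite sides of 0, at -2.32 and 0.82 in quadriceps, while the probe sets of Serinc3 and Rab4a each lie on 1 side.

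Whether genotype mattered without the wt young mice was asked by comparing C3KO with wt adults. In quadriceps 111 of 20592 probe sets (0.539%) passed limma's test at an adjusted p under 0.05, 0.199% as higher and 0.34% as lower in C3KO adults. Among the 8 main probe sets 1 was higher and 1 lower. The main probe set of Sdc4 was higher by 1.03 ± 0.23 (SE) log2 units, a 2.04-fold difference (adjusted p = 0.046, limma), while its probe set 1417654_at differed by -0.20 ± 0.18 (adjusted p = 0.747), with the opposite sign. Serinc3 was lower by 1.54-fold, a difference of -0.62 ± 0.14 (adjusted p = 0.0404). Its probe set 1417815_a_at gave -0.62 ± 0.14 as well (adjusted p = 0.033). Both calls were close to the threshold and kept their direction in every alternative setting, but that of Sdc4 passed in only 7 of 27 and that of the main Serinc3 probe set in 11 of 26. The Sdc4 call was lost without any 1 of 15 mice (M2-2, W2-1, W2-3, X2-3, Q2-1, Q2-2, Q2-3, Q2-4, U2-2, U2-3, J4-1, J4-2, H4-2, F4-3 and F4-4), and the Serinc3 call without any 1 of 12 (M2-2, W2-1, W2-3, X2-3, Q2-1, Q2-2, Q2-3, Q2-4, U2-1, U2-2, J4-1 and H4-2). Within array code 1-3 Sdc4 differed by 0.74 (adjusted p = 0.571) and Serinc3 by -0.57 (adjusted p = 0.485). Hddc3 had the largest difference of the 8, -1.69 ± 0.40, and an adjusted p of 0.0527 that did not pass. No C3KO adult read near the group mean of 6.51, since these mice were either low or high.

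In soleus 35 of 20538 probe sets (0.17%) passed for C3KO against wt adults, 0.073% as lower in C3KO adults. No main probe set of the 8 genes was among them. At an unadjusted p under 0.05 there were 3 of these 8, against 1573 of all 20538 probe sets. Probe set 1434548_at of Serinc3 did pass, lower in C3KO adults with a difference of -0.94 ± 0.12 (adjusted p = 0.000482, limma), and in all 25 alternatives that tested it. The 6 C3KO adults read 4.39 to 4.68 there and the 5 wt adults 5.01 to 5.76, so the groups did not overlap in this probe set. No fold is given, since the C3KO readings lay near the array medians. In the main probe set of Serinc3 the same groups overlapped in soleus, with wt adult X2-2 at 9.38 and C3KO adult Q2-4 at 9.46. The main probe set of Sdc4 differed by 0.93 ± 0.27 (adjusted p = 0.275), that of Hddc3 by -1.53 ± 0.35 (adjusted p = 0.105) and that of Serinc3 by -0.45 ± 0.11 (adjusted p = 0.156), each in the direction seen in quadriceps. Probe set 1417654_at of Sdc4 differed by -0.19 ± 0.28 (adjusted p = 0.933), again with the sign opposite to the main one. The difference between muscles in the genotype effect was tested within mice and passed for 0 of 21271 probe sets with limma, while 1210 had an unadjusted p under 0.05, among them 1 of the 8 main probe sets. The main probe sets of Blvrb, Mrps12, Rab4a and Alkbh6 differed between adult genotypes by -0.15 to 0.12 in quadriceps and by -0.06 to 0.21 in soleus, and none passed. Vegfc differed by 0.25 ± 0.26 and -0.29 ± 0.19.

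Age was compared in C3KO mice, the genotype without F4 animals. Adult against young C3KO mice differed in 204 probe sets in quadriceps (0.991%) and 543 in soleus (2.64%, and 140 without the H4-2 array), and none of the 16 tested probe sets of the 8 genes was among them in either muscle. At an unadjusted p under 0.05 there were 0 of these 16 in quadriceps, against 2437 of all 20592 probe sets. In soleus there were 4 of 16, against 3991 of 20538. The nearest was the main probe set of Vegfc in soleus, lower in adults by 1.62-fold with a difference of -0.70 ± 0.21 (adjusted p = 0.069, limma), which passed in 3 of 26 alternatives, among them those without U2-1 and without H4-1. The main probe set of Sdc4 differed by -0.40 ± 0.26 in quadriceps and -0.21 ± 0.29 in soleus. Its probe set 1417654_at differed by -0.02 ± 0.20 and by 0.84 ± 0.30 (adjusted p = 0.128 in soleus). Mrps12 differed by 0.19 ± 0.13 and 0.27 ± 0.15. Array code partly went with age here, since among C3KO arrays code 1-1 was found in adults only. With the code as a block, 22 probe sets were called for age in quadriceps and 30 in soleus. Within code 1-3 alone there were 18 and 21. Young and adult C3KO mice also carry different name prefixes, so age cannot be told apart from what else those mice share.

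The muscles themselves were compared within the 19 mice that have both arrays. This test called 13204 of 21271 probe sets (62.1%), 28.8% as higher and 33.3% as lower in soleus, so a call is common. Of the 8 main probe sets 2 were higher and 5 lower in soleus. Sdc4 was higher by 1.05 ± 0.14, a 2.06-fold difference (adjusted p = 2.04e-06, limma), and in 18 of 19 mice. Vegfc was higher by 0.22 ± 0.09 (adjusted p = 0.0318) and in 13 of 19 mice, a call lost without any 1 of 6 mice (F4-1, F4-3, H4-2, Q2-2, W2-3 and X2-2). Rab4a was lower in soleus by 1.45-fold and in 18 of 19 mice, Serinc3 by 1.29-fold in 17, Alkbh6 by 1.23-fold in 19 and Mrps12 by 1.20-fold in 17. Hddc3 was lower by 1.34-fold in 15 of 19 mice, and Blvrb, at -0.09 ± 0.07, did not pass (adjusted p = 0.305). Without Q2-3 and Q2-4 the differences were -0.46 for Hddc3 and -0.28 for Mrps12, against -0.42 and -0.26 with them. Without the H4-2 array Vegfc differed by 0.17 (adjusted p = 0.0826), and no other of the 8 calls changed.

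Few relatives of the 8 genes were called in wt young mice. For these, wt young mice were tested against the mean of the other 3 groups, a comparison in which 640 of 20592 probe sets passed in quadriceps (3.11%, of which 1.65% higher and 1.46% lower) and 80 of 20538 in soleus (0.39%, of which 0.263% higher and 0.127% lower). None of 3 other syndecans passed in either muscle: Sdc1 differed by 0.06 ± 0.12 and Sdc2 by 0.05 ± 0.13 in quadriceps, and Sdc3, also known from satellite cells, by 0.09 ± 0.08 in soleus. Of 9 tested partners of syndecan 4 at the cell surface none passed, among them Prkca, a kinase that binds its tail (0.38 ± 0.11 in quadriceps, adjusted p = 0.0713), Itga5, an integrin subunit (0.31 ± 0.16 in quadriceps), and Fn1, the matrix protein fibronectin (0.51 ± 0.23 in soleus).

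Of 8 tested VEGF ligands and receptors 1 was higher in wt young quadriceps and none passed in soleus. The one was Flt1, VEGF receptor 1, at 0.69 ± 0.13 (adjusted p = 0.00495, limma), and it was also higher in C3KO than in wt adult quadriceps by 0.59 ± 0.13 (adjusted p = 0.0368). In wt young soleus Flt1 differed by 0.53 ± 0.17 (adjusted p = 0.252), and the difference between the muscles was not tested. Vegfa differed by 0.24 ± 0.14 in quadriceps and Vegfb by 0.41 ± 0.13 in soleus, and neither passed. In soleus against quadriceps all 8 were higher, by a median of 0.47, and the blood vessel marker list was higher in soleus with 6 of 6 genes. Lymphatic markers were not called: none of 3 tested in quadriceps or of 4 in soleus passed. Their mean level was 6.09 to 6.25 in wt young soleus, against 5.64 to 5.99 in wt adults, 5.69 to 6.22 in C3KO adults, and 5.44, 5.81, 5.81 and 7.12 in C3KO young mice, the last on the H4-2 array. Apart from that array, wt young soleus therefore lay at the top of the range, overlapping C3KO adults, and the part of this in the level of Vegfc was not tested. Prox1, a defining lymphatic gene, was at or under the array median on every quadriceps array of each group.

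In the haem pathway, in which Blvrb takes part after haem breakdown, 1 of 11 tested genes was lower in wt young soleus and none passed in quadriceps. It was Alad, which makes the pyrrole unit of haem, at -0.67 ± 0.10 (adjusted p = 0.00217, limma), and in quadriceps it differed by -0.50 ± 0.14 (adjusted p = 0.0584). Alad was higher in C3KO than in wt adults, by 1.00 ± 0.14 in quadriceps (adjusted p = 0.000573, limma) and 1.07 ± 0.11 in soleus (adjusted p = 2.06e-05). The mean that wt young mice were compared with includes both C3KO groups. Whether Alad differed between wt young mice and wt adults alone was not tested. Hmox1, which opens the haem ring upstream of biliverdin reductase, differed by 0.38 ± 0.11 in quadriceps (adjusted p = 0.0768), and Alas1, the first enzyme of haem synthesis, by 0.37 ± 0.14 (adjusted p = 0.168).

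Of 29 other proteins of the small mitochondrial ribosomal subunit 1 was higher in wt young quadriceps and none passed in soleus. It was Mrps14, at 0.48 ± 0.12 (adjusted p = 0.0294, limma), a call lost without F4-1, F4-2 or F4-3, and it differed by 0.35 ± 0.13 in soleus (adjusted p = 0.344). The list's median difference was 0.14 in quadriceps and 0.16 in soleus, against medians of -0.01 and 0.03 over all probe sets. Mrps36 differed by 0.34 ± 0.10 in soleus and Mrps6 by 0.23 ± 0.07 in quadriceps, and neither passed. Of 7 AlkB relatives 1, Alkbh4, was higher in wt young quadriceps at 0.26 ± 0.07 (adjusted p = 0.0499, limma), a call that held in 4 of 27 alternatives and was lost without any 1 of 19 mice. Alkbh5, a demethylase of RNA, differed by -0.22 ± 0.10 in quadriceps and Alkbh3 by 0.20 ± 0.09 in soleus. None of 14 endosomal Rab genes passed in either muscle, the nearest being Rab31 (0.47 ± 0.11 in soleus, adjusted p = 0.0703). Rab11a and Rab4b, both of recycling endosomes, differed by 0.23 ± 0.07 and 0.30 ± 0.09 in soleus, against the direction of Rab4a. No SERINC or HD domain relative passed: Serinc1 differed by -0.08 ± 0.08, Serinc2 by 0.15 ± 0.13, Serinc4 by -0.16 ± 0.18 and Samhd1 by 0.09 ± 0.09 in soleus, and Hddc2 by 0.22 ± 0.10 in quadriceps.

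Other features of the wt young arrays moved with them. Heat shock genes, which can respond to stress (not measured here), were higher in wt young quadriceps for 7 of 10 (median 0.61) and in soleus for 1 of 10 (median 0.36). Their mean level was 10.26 to 11.57 on wt young quadriceps arrays and 9.48 to 10.26 on the others, and 10.59 to 11.32 against 10.11 to 10.96 in soleus. Of the 6 genes of the fibroblast list 3 collagen genes, Col1a1, Col1a2 and Col3a1, were higher in wt young quadriceps by 0.66 to 0.83, and their list as a whole read 9.94 to 10.65 there and 10.57 to 10.61 in C3KO young quadriceps. Of 4 tested genes of the adipocyte list 1, Lep, was lower in wt young quadriceps, by 2.05 (SE 0.44), and none passed in soleus. The list's mean level was 5.39 to 7.32 in wt young and 6.44 to 7.20 in C3KO young quadriceps. In adult quadriceps it was 6.74 to 8.26 in wt and 7.14 to 8.83 in C3KO mice. The difference between 3' and 5' actin control probe sets, a measure of RNA integrity, averaged 0.366 and 0.367 in wt young quadriceps and soleus and 0.157 to 0.306 in the other groups, with overlap. All 8 wt young arrays carry the array code 1-3 of the labels, and within that code alone 29 probe sets were apart. The part of any of these in the levels of the 8 genes was not tested. None of the genes on the fast or slow fibre, blood vessel, lymphatic, macrophage, tendon, Schwann cell, satellite cell, erythroid or liver lists that were tested passed in either muscle. Their levels were not shown to be equal. Median differences in quadriceps and soleus were 0.51 and 0.63 for tendon, 0.21 and 0.43 for macrophage, 0.57 and 0.10 for slow fibre genes. For liver genes they were -0.04 and -0.70, with the H4-2 array included. The fibroblast list had a median of 0.52 in soleus, where none passed. Over all probe sets the medians were -0.01 and 0.03.

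Outside the 8 genes, those whose pattern was most like theirs by the gap were few, and they were compared over the same 40 arrays. Gm38983 was lower in wt young mice with a gap of 0.347, near or under the array medians at 3.28 to 3.90 in quadriceps. Aga, a lysosomal enzyme that cleaves sugar from asparagine, was higher with a gap of 0.171. Hsph1, a heat shock protein, was higher (0.078), Car3, muscle carbonic anhydrase, lower (0.069), Mrpl43, of the large mitochondrial ribosomal subunit, higher (0.044), Snx5, a sorting nexin of endosomes, lower (0.015), and 4930523C07Rik higher (0.005). The last read 3.87 to 4.13 in wt young and 3.31 to 3.82 in other quadriceps, and 3.91 to 4.30 against 3.34 to 3.90 in soleus, all below the lowest array median. The next in order, Abhd14a, Rgs5 and Eif5, already overlapped by 0.013 to 0.022.

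The 8 genes lie on 3 chromosomes. Serinc3 and Sdc4 are on chromosome 2 with 24 array genes between them. Blvrb, Mrps12, Alkbh6 and Hddc3 are on chromosome 7, with 36 array genes between Blvrb and Mrps12 and 387 between Alkbh6 and Hddc3. Gm38983, from the list of most alike genes, lies between Mrps12 and Alkbh6, 27 genes from the former and 19 from the latter. Vegfc and Rab4a are on chromosome 8, 609 genes apart, and Aga is separated from Vegfc by 1 gene. These chromosomes hold 7.76%, 7.83% and 5.18% of the array genes with a known position. Capn3 is also on chromosome 2, with 202 array genes to Snx5 and a further 225 from there to Serinc3.

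Genes near the 8 were then tested, with a window of 25 array genes on each side that was chosen after these positions were seen. Of 255 neighbours tested in quadriceps 14 passed for wt young against the others (5.49%), where 3.15% of 11907 genes did. In soleus 6 of 259 passed (2.32%), where 0.376% of 11964 genes did. Aga and Gm38983, chosen for this very pattern, are among them in both muscles, so the shares among neighbours are partly fixed by that choice. Zfp30, a zinc finger gene 17 genes from Alkbh6, was lower by -0.73 ± 0.15 in quadriceps and -1.30 ± 0.19 in soleus (adjusted p = 0.00722 and 0.00214, limma). Kcnk6, a potassium channel gene 19 genes from Mrps12, was higher by 0.49 ± 0.11 and 0.51 ± 0.10 (adjusted p = 0.0171 and 0.0305). Ttpal, the direct neighbour of Serinc3 on the array, was higher in quadriceps by 0.60 ± 0.13 (adjusted p = 0.0114). No neighbour of Blvrb passed in either muscle. Most neighbours lay near 0, with medians of -0.07 to 0.11 by gene and muscle.

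**Figure D4:**
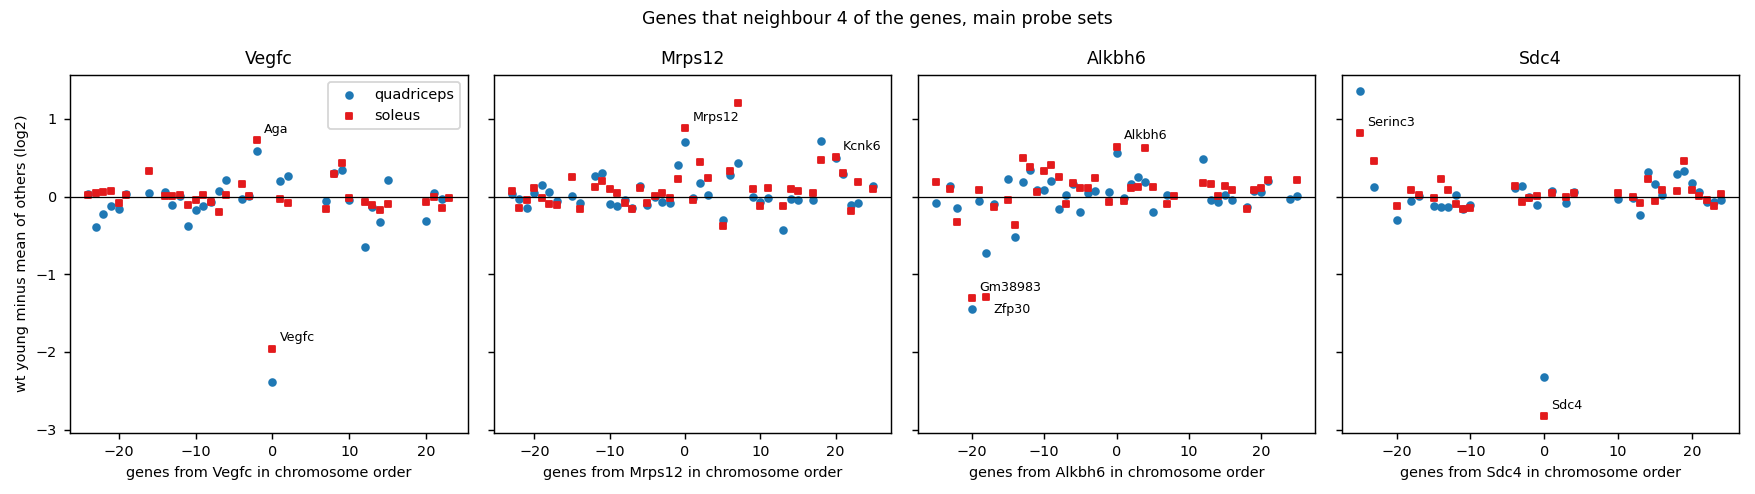
Wt young minus the mean of the other 3 groups (log2 units) is plotted for genes up to 25 places on each side of Vegfc, Mrps12, Alkbh6 and Sdc4, in chromosome order, circles for quadriceps and squares for soleus. Named genes such as Aga, Zfp30, Gm38983 and Kcnk6 stand out from neighbours that lie near 0.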

How the data were processed

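Expression was measured on 1-colour Affymetrix arrays, 1 per muscle. The log2 values of 42 arrays were used as the authors deposited them. The submitters' processing notes name RMA and MAS5, with no role for either. The members and the gene lists were chosen with earlier results of these data known.

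The 2 arrays of mouse M2-1, a wt adult, entered no group, since title and description name different muscles. Of 45037 probe sets that are no controls, the platform annotation gives 34945 exactly 1 symbol, 932 several symbols and 9160 none. Gene IDs gave current symbols for 99.4%, through a table of assembly GRCm38.p6. Tests kept probe sets above the array median on at least 4 arrays: 20592 in quadriceps and 20538 in soleus.

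Differences were tested two-sided with limma 3.58.1 in R 4.3.3, the 4 groups of a muscle in 1 fit, with Benjamini-Hochberg adjustment over all probe sets and a threshold of 0.05. Muscles were compared on within-mouse differences, since both arrays come from 1 animal. The fits were tested on simulated data. Arrays of a group come from separate mice, and their number limits the precision.

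Named genes are the 8 with all probe sets, Capn3, the 10 genes with the largest gap, and per list the 3 with the smallest p. Genes that passed on marker lists, neighbours, and Alad and Flt1 in adults are named after their values were seen. Alternatives covered the filter, 1 probe set per gene, quantile normalization, array code, the actin difference, the H4-2 array and each array left out. Leaving out Q2-3 and Q2-4 was added after seeing the data. Figures used matplotlib 3.10.9.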

Additional observations from a re-analysis of the deposited data

Results flagged for a closer look

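In groups of 4 to 7 arrays the highest and lowest values of the 8 main probe sets were compared with their neighbours by Dixon's test, in 64 groups. In 2 of them an array lay far from the rest of its group, and chance sets apart about 1 in 20. Rab4a on the soleus array of wt young mouse F4-3 read 6.42, above 6.00, 6.00 and 6.05 in the other 3, and still below every other group. In C3KO young soleus, Serinc3 read 9.24 in mouse H4-2, above 9.03, 9.05 and 9.06 in the other 3. That array is the one with liver genes at a median of 13.05, and its part in the value was not tested.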

How the results depend on the processing

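With arrays of code 1-3 alone, C3KO against wt adults gave 43 calls in quadriceps (111 with all arrays) and 55 in soleus (35), adult against young C3KO mice 18 (204) and 21 (543), and wt young against the others 128 in soleus (80). The array code as a block gave 22 and 30 calls for age in C3KO mice and 138 for wt young soleus. With 1 probe set per gene the counts were 409 for wt young quadriceps (640), 47 for wt young soleus, 20 for adult soleus and 7817 between muscles (13204). For age in C3KO soleus no filter gave 329, the actin difference as a covariate 1009 and leaving out the H4-2 array 140, and without that array wt young soleus had 152. Treating the muscles as unpaired, with no replicate block, gave 13113 calls, and Hddc3, Vegfc and 1434548_at of Serinc3 then missed the threshold, at -0.37, 0.24 and -0.19. Leaving out Q2-3 and Q2-4 gave 12640. A gap of at least 0.5 left 1 probe set apart (14), and code 1-3 alone 29. Leaving out each mouse in turn gave 72 (without X2-3) to 172 (without U2-3) calls for adult quadriceps, 24 (W2-3) to 80 (M2-2) for adult soleus, 38 (J4-1) to 434 (H4-1) for C3KO age in quadriceps and 140 (H4-2) to 1144 (J4-2) in soleus. For wt young mice it gave 232 (F4-4) to 690 (U2-2) in quadriceps and 35 (F4-1, F4-2 or F4-4) to 152 (H4-2) in soleus. It gave 12679 to 13198 between muscles, and 14 to 33 (F4-3) probe sets apart.

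Some differences near 0, none past the threshold, changed sign. The code block gave 0.03 for Mrps12 in adult quadriceps, 0.22 for Hddc3 with age in both muscles, and -0.01 for Sdc1 and -0.05 for Sdc2. Code 1-3 alone gave 0.16 for Rab4a in adult quadriceps, 0.03 for Vegfc in adult soleus, 0.35 and 0.41 for Hddc3 with age in quadriceps and soleus, and -0.05 for Sdc2. Without the H4-2 array Sdc4 differed by 0.06 with age in soleus. With each array left out in turn, genotype differences in adults ran from -0.09 to 0.02 for Mrps12 and -0.12 to 0.01 for Rab4a in quadriceps, and from -0.01 to 0.16 for Mrps12 and -0.24 to 0.02 for Blvrb in soleus. Age differences in C3KO mice ran from -0.43 to 0.33 for Hddc3 and -0.03 to 0.05 for Blvrb in quadriceps, and from -0.31 to 0.30 for Hddc3 and -0.43 to 0.06 for Sdc4 in soleus. Sdc2 in wt young quadriceps ran from 0.00 to 0.13. The causes were not tested. The adult quadriceps calls of Sdc4 and Serinc3 were the least firm: over the alternatives the adjusted p of limma ran from 0.0104 to 0.571 for Sdc4 and from 0.00181 to 0.485 for Serinc3.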

Other observations

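Both arrays of wt adult mouse M2-1 belong to no group, because their labels name different muscles. Sdc4 (main probe set) read 6.84 and 8.28 on them, Vegfc 6.68 and 6.68, Blvrb 7.60 and 7.78, and the main probe set of Rab4a 7.68 and 7.23. Serinc3 read 10.39 and 9.58, Mrps12 7.61 and 7.13, Alkbh6 6.77 and 6.69, and Hddc3 7.64 and 7.63.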
